A study of Homo sapiens with 6 samples.

Results

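The integrated stress response genes described here are ATF4 and 9 genes that act with it or downstream of it, taken by symbol from the count table: ATF4, ATF3, ATF5, DDIT3, TRIB3, CHAC1, SESN2, PPP1R15A, CEBPB and NUPR1. All 10 were found among the 59653 gene symbols of the table, and all 10 passed the filter on low counts that left 19008 genes for testing. RNA sequencing was performed on SKOV3 cells, a human ovarian cancer line labelled wildtype, with 3 libraries from cells given control siRNA (a non-targeting pool, here siControl) and 3 from cells given sipvt1 (a pool of siRNAs against the lncRNA PVT1, here siPVT1). Both groups received the same lipid transfection reagent, and RNA was taken after 48 h. The design holds a single cell line and a single pool against PVT1, so an effect of lowering PVT1 and another effect of that pool cannot be told apart. The sources do not say whether the replicates of a group came from separate cultures, so the p-values measure only the spread between these libraries. In bulk RNA, less RNA per cell and fewer cells that express a gene cannot be told apart.

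The integrated stress response is the pathway by which cells slow protein synthesis under stress. Kinases that sense misfolded protein in the endoplasmic reticulum, amino acid shortage, double-stranded RNA, or heme and mitochondrial defects phosphorylate the translation factor eIF2α. General translation then falls, while the transcription factor ATF4 is translated more, because upstream open reading frames in its 5′ leader no longer hold ribosomes back. ATF4 pairs with C/EBP proteins on the DNA and switches on genes for amino acid supply, redox balance and, under lasting stress, cell death. Counts of RNA therefore show the level of the ATF4 message and of its target genes, and not the amount of ATF4 protein.

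Of the 10 genes, 7 were lower in siPVT1 past both thresholds used to call a gene (an adjusted p below 0.05 by the Benjamini-Hochberg method, and a log2 fold change of 1 or more in either direction), and 0 were higher. Among all 19008 tested genes, 9.64% were called lower and 11.8% were called higher. The 10 genes were chosen with earlier results of these data known, so the contrast with these shares is not independent of that choice. The called genes were TRIB3, ATF3, CHAC1, PPP1R15A, ATF5, SESN2 and DDIT3. ATF4 itself fell by a smaller amount that passed the adjusted p-value alone, which brought the genes lower by that rule to 8 of 10, against 28.4% of all tested genes. For CEBPB and NUPR1 the test was not passed. The 10 log2 fold changes had a median of −1.42, where the median over all tested genes was 0.001. In 8 of the 10 genes each siPVT1 library lay below each siControl library, which was so for 32.3% of all tested genes. With 3 libraries against 3, the two-sided exact permutation test of a single gene cannot go below p = 0.1, so the adjusted p-values given with a standard error (SE) are from edgeR's quasi-likelihood test fitted across all genes.

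The total count was between 28383171 and 35059576 per library. PVT1, the targeted RNA, was lower in each siPVT1 library than in each siControl library, with a log2 fold change of −0.72 (SE 0.0967, edgeR adjusted p = 0.000342) that did not reach the fold threshold. Of 11 epithelial and ovarian carcinoma markers, all had counts in some library, with means of 8575 (KRT8) and 2627 (PAX8) normalized counts in siControl and only 27.1 for CDH1. Of 12 markers of blood, endothelial, fibroblast, muscle, glial and liver cells, 7 had at most 10 counts in any library, and CD3E was at 0 in all 6. Their summed level was 2166 to 2188 normalized counts in siControl and 9060 to 11323 in siPVT1, with CDH5, PECAM1 and COL1A1 called higher and CD14 called lower of the 5 tested, and the part of this in the results below was not tested. Scaling by the total count in place of TMM shifted the middle of all log2 fold changes, their median, to −0.15 and the share of higher genes among those called from 55.1% to 43.8%, and all 10 genes kept a negative log2 fold change with either scaling.

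**Figure D1:**
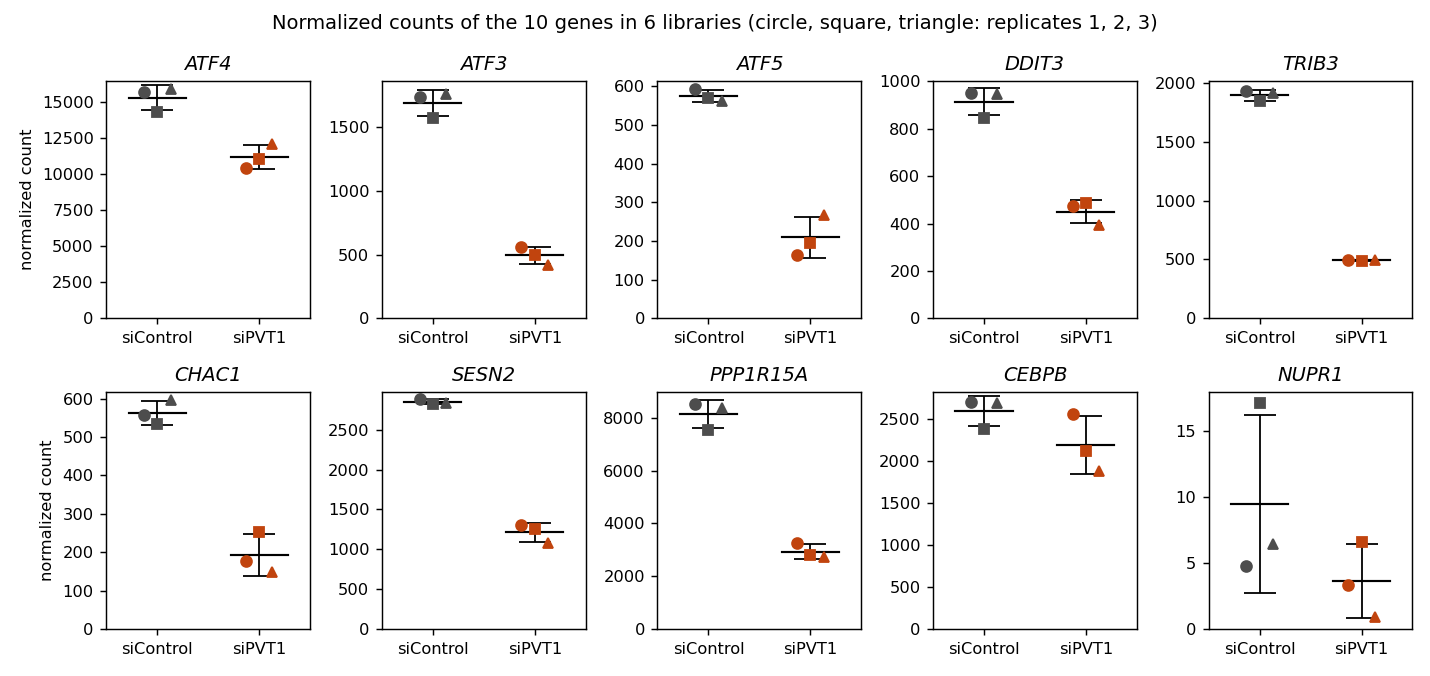
Normalized counts (y axis, linear, from 0, with a scale of its own in each panel) of the 10 genes in the 3 siControl libraries (grey) and the 3 siPVT1 libraries (orange); symbols mark replicates, the horizontal line the mean and the error bar the SD. In 8 panels the orange points lie below all grey points, and the groups overlap for CEBPB and NUPR1.

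ATF4 (ENSG00000128272, chr22:39519695-39522683 on GRCh38, plus strand) is the transcription factor at the centre of the response. Its normalized counts were 15706, 14300 and 15869 in the siControl libraries, given in replicate order here and below, and 10386, 11065 and 12054 in the siPVT1 libraries. The groups did not overlap. The level in siPVT1 was 73.0% of that in siControl, a log2 fold change of −0.45 (SE 0.0741, edgeR adjusted p = 0.00101). Of all tested genes, 27.1% had a lower log2 fold change than ATF4, so its fall did not stand out in size from the transcriptome.

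ATF3 (chr1:212565334-212620777, plus strand) encodes a bZIP factor that is induced by ATF4 and by many other stresses and can repress or activate its targets. Its normalized counts were 1738, 1573 and 1762 in siControl and 560.1, 498.2 and 420.0 in siPVT1. Each siPVT1 library was under each siControl library by a wide margin. The log2 fold change was −1.78 (SE 0.110, edgeR adjusted p = 6.78e-06), a 3.44-fold fall, and only 3.64% of tested genes had a lower value.

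ATF5 (chr19:49928702-49933935, plus strand) encodes a close relative of ATF4 with a known part in the mitochondrial stress response. It had 592.3, 570.8 and 562.5 normalized counts in siControl and 163.7, 195.6 and 267.8 in siPVT1. The siControl libraries were close to each other, while siPVT1 replicate 3 was the highest of its group. The spread, as a coefficient of variation, was 2.67% of the mean for siControl and 25.5% for siPVT1. The log2 fold change was −1.45 (SE 0.162, edgeR adjusted p = 0.000124). Exons of ATF5 overlap exons of NUP62 on the other strand over up to 305 bases, and the strand setting of the counting is not given in the sources used here, so reads from that stretch may belong to either gene.

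DDIT3 (chr12:57516588-57521737, minus strand) encodes CHOP, the factor that ATF4 induces under lasting stress and that is linked to cell death. It had 950.4, 847.6 and 945.9 normalized counts in siControl and 473.3, 485.1 and 392.8 in siPVT1. Its level fell 2.03-fold, a log2 fold change of −1.02 (SE 0.101, edgeR adjusted p = 6.58e-05), which is only just past the fold threshold. Without siPVT1 replicate 3 the log2 fold change was −0.95, and DDIT3 was then not called. DDIT3 shares up to 287 exonic bases with MARS1 on the other strand, where the same limit on strand applies, and MARS1 had a log2 fold change of −0.52 (SE 0.0653, edgeR adjusted p = 0.000231).

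CEBPB (chr20:50190830-50192668, plus strand) encodes C/EBPβ, a dimer partner of ATF4 and CHOP that is also induced in inflammation. It had 2700, 2379 and 2691 normalized counts in siControl and 2554, 2120 and 1881 in siPVT1. The groups overlapped, since siPVT1 replicate 1 was above siControl replicate 2. The log2 fold change of −0.25 (SE 0.113, edgeR adjusted p = 0.0936) did not pass the test. Over the alternatives the adjusted p ranged from 0.0035, without siPVT1 replicate 1, to 0.216, and the log2 fold change from −0.39 to −0.16. With every library kept, scaling by the total count also brought CEBPB past the adjusted p-value (log2 fold change −0.39, edgeR adjusted p = 0.0132).

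PPP1R15A (chr19:48872212-48876059, plus strand) encodes GADD34, which brings a phosphatase to eIF2α and so ends the response. It had 8531, 7533 and 8400 normalized counts in siControl and 3244, 2816 and 2728 in siPVT1. The highest siPVT1 library was well below the lowest siControl library, and the log2 fold change was −1.48 (SE 0.0851, edgeR adjusted p = 4.95e-06). TRIB3 (chr20:362835-397559, plus strand) encodes a pseudokinase that is induced by ATF4 and CHOP, dampens their activity and binds AKT. Its normalized counts were 1935, 1846 and 1916 in siControl and 493.3, 487.3 and 494.2 in siPVT1. TRIB3 had the lowest log2 fold change of the 10 genes, −1.95 (SE 0.0625, edgeR adjusted p = 5.58e-07), and the siPVT1 libraries differed little, with a coefficient of variation of 0.77%. Its level in siPVT1 was 25.9% of that in siControl.

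CHAC1 (chr15:40952962-40956512, plus strand) encodes a cyclotransferase that breaks down glutathione and is a sensitive readout of ATF4 activity. It had 557.1, 534.4 and 594.9 normalized counts in siControl and 176.0, 252.4 and 148.5 in siPVT1. The groups were far apart, and the siPVT1 libraries spread more (coefficient of variation 28.0%) than the siControl libraries (5.43%). The log2 fold change was −1.55 (SE 0.176, edgeR adjusted p = 0.000137). SESN2 (chr1:28259518-28282491, plus strand) encodes sestrin 2, which senses leucine and restrains mTORC1. It had 2887, 2829 and 2836 normalized counts in siControl and 1308, 1249 and 1080 in siPVT1. All siPVT1 libraries were lower, with a log2 fold change of −1.23 (SE 0.0798, edgeR adjusted p = 8.42e-06). NUPR1 (chr16:28532708-28539008, minus strand), a small stress-induced chromatin protein, was close to the limit of detection with 5, 17 and 7 raw counts in siControl and 3, 6 and 1 in siPVT1. The groups overlapped, and its log2 fold change of −1.39 had a standard error of 0.723 (adjusted p = 0.135 in edgeR), so no difference was detectable at this depth.

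**Figure D2:**
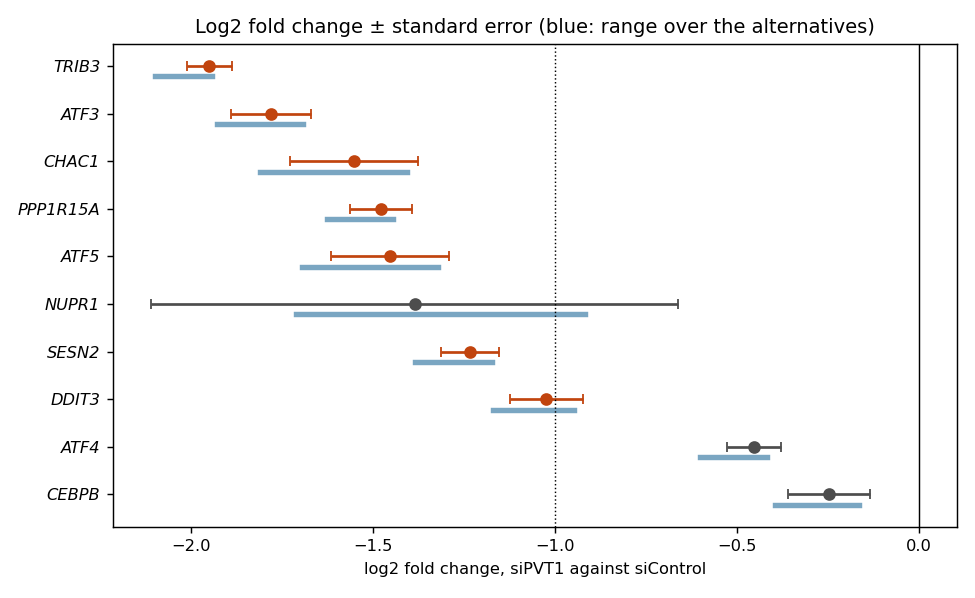
Log2 fold change of siPVT1 against siControl (x axis) for the 10 genes, with the standard error as the bar; orange marks genes called lower, grey the others, the dotted line the fold threshold and the blue line the range over the alternative ways of processing. TRIB3 is lowest at −1.95, ATF4 and CEBPB lie between the threshold and 0, and the ranges of DDIT3 and NUPR1 cross the threshold.

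The levels of the 10 genes were compared after scaling the counts to library size (CPM) and dividing by the length of the canonical transcript in kilobases. On this scale ATF4 was the most abundant in siControl at 346 ± 19.5 (SD, n = 3), followed by PPP1R15A at 111 ± 7.41 and CEBPB at 45.2 ± 3.19. DDIT3 (32.5 ± 2.07), ATF3 (28.0 ± 1.70), SESN2 (26.5 ± 0.297) and TRIB3 (25.9 ± 0.641) came next, of which ATF3 and SESN2, and SESN2 and TRIB3, overlapped between libraries. CHAC1 (11.9 ± 0.645), ATF5 (9.21 ± 0.246) and NUPR1 (0.0575 ± 0.0409) were lowest. Dividing by the canonical length takes no account of other transcripts of a gene. The canonical transcript of NUPR1 has 5291 bases, 4975 of them after the stop codon, so its value depends on this choice. In siPVT1 ATF4 stayed first at 253 ± 19.0 (SD, n = 3), and PPP1R15A (40.0 ± 3.78) and CEBPB (38.2 ± 5.95), which were apart in siControl, overlapped. Within each library of both groups TRIB3 was below ATF3 and SESN2. Its siControl values overlapped those of ATF3 and SESN2 between libraries. In siPVT1 TRIB3, at 6.70 ± 0.0513, lay below every value of ATF3 (8.16 ± 1.16) and SESN2 (11.2 ± 1.10).

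To compare each gene with ATF4 itself, the log2 ratio of its normalized counts to those of ATF4 was taken within each library, so that the scaling of libraries does not enter. Relative to ATF4, TRIB3 was lower in siPVT1 by a difference of −1.49 and ATF3 by −1.33. CHAC1, ATF5 and PPP1R15A differed by −1.13, −1.04 and −1.02, SESN2 by −0.78 and DDIT3 by −0.57. For these 7 genes the ratio was lower in 3 of 3 siPVT1 libraries than in any of the siControl libraries (exact permutation test, two-sided, with p at its minimum of 0.1 and an adjusted p of 0.129 over 9 ratios). These are the 7 genes called lower, so the ratios are no separate evidence of their fall. The share of all tested genes with such a ratio was not computed. The siControl ratios of ATF3 lay within an SD of 0.00670 on the log2 scale, against 0.317 in siPVT1. CEBPB moved the other way relative to ATF4, by 0.20, with overlapping groups (exact permutation test, p = 0.4, adjusted p = 0.45). For NUPR1 the difference was −1.11 with few counts (exact permutation test, p = 0.5).

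**Figure D3:**
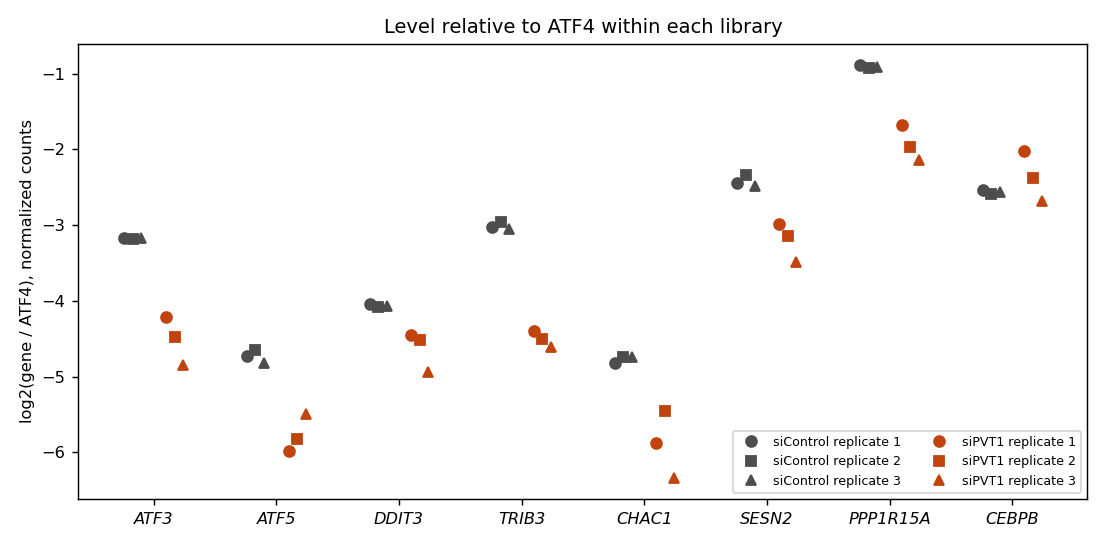
Log2 ratio of the normalized counts of 8 genes to those of ATF4 in the same library (y axis), for siControl (grey) and siPVT1 (orange) replicates 1 (circle), 2 (square) and 3 (triangle); NUPR1 is left out for its few counts. The orange points lie below all grey points for 7 genes and overlap them for CEBPB.

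Promoter sequences are shown for genes lower in siPVT1 by the adjusted p-value that hold a known element within 250 bases before a start. ATF4 dimers with C/EBP proteins bind the C/EBP-ATF response element, searched as TGATGNAA on both strands, and ATF and CREB factors bind the cyclic AMP response element, searched as TGACGTCA, which reads the same on both strands. RefSeq start sites on GRCh38.p14 were at hand for 9 of the 10 genes, all but NUPR1. Within the 250 bases before a start, the first element was present in 2 of the 9 genes, CHAC1 and ATF3, against 3.89% of 27305 genes with such windows, and the second in 1 of the 9, PPP1R15A, against 2.03%. The first element was also looked for in other genes of the pathway lists. No window was at hand for SLC7A11. Of the 8 genes with a window, 2 held the element, ASNS and CEBPG, which are printed beside the members. PSAT1, SLC7A5, SLC6A9, VLDLR, DDIT4 and HSPA5 did not hold it in their windows. The windows lie at chr15:40953221-40953470 (CHAC1, plus strand), chr1:212565157-212565406 (ATF3, plus strand, the first of 2 windows), chr19:48872171-48872420 (PPP1R15A, plus strand), chr7:97872409-97872658 (ASNS, minus strand, the first of 2 windows) and chr19:33373863-33374112 (CEBPG, plus strand, the second of 2 windows). For ATF3, ASNS and CEBPG the other window held neither element. Each window is printed 5′ to 3′ along the gene with the matched element in capitals.
CHAC1: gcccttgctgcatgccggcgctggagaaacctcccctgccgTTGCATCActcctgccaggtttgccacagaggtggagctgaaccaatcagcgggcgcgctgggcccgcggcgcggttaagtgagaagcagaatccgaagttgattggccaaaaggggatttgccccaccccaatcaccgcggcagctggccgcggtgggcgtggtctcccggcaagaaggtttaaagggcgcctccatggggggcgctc
ATF3: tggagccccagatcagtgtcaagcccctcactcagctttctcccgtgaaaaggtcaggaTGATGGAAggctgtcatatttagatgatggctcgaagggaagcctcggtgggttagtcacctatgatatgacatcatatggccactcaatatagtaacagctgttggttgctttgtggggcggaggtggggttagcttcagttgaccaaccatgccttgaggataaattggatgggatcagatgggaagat
PPP1R15A: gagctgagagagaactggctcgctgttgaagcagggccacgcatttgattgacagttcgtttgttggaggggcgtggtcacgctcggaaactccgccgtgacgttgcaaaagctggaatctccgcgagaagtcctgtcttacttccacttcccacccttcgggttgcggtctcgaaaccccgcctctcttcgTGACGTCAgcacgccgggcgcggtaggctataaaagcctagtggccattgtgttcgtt
ASNS: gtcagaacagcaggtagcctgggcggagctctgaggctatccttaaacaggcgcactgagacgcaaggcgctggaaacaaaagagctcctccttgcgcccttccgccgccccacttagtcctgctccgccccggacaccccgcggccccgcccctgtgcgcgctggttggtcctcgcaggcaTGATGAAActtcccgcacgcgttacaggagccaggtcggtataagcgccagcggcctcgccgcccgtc
CEBPG: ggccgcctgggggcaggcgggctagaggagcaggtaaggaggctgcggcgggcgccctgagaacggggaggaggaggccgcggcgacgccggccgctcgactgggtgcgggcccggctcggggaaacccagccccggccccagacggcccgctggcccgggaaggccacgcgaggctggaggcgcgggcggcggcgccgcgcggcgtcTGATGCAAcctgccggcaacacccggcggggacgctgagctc
In CHAC1 the match lies on the opposite strand, from −209 to −202 before the start, and reads TTGCATCA, the reverse complement of the TGATGCAA found in CEBPG from −42 to −35. ATF3 holds TGATGGAA from −191 to −184 and ASNS TGATGAAA from −68 to −61. The element of PPP1R15A lies from −58 to −51. A match of letters is not a bound site, and the absence of one in ATF4, ATF5, DDIT3, TRIB3, SESN2 and CEBPB says only that these letters are not in these windows.

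Upstream start codons, through which the translation of ATF4 and several of its partners is controlled, were counted in the 5′ leader of the canonical GENCODE v44 transcripts. They were present in 6 of the 10 genes, with 3 in ATF4, 3 in DDIT3, 2 each in ATF5, PPP1R15A and TRIB3 and 1 in SESN2. Of 13631 tested protein-coding genes with such a transcript, 41.8% had at least 1. ATF3, CEBPB, CHAC1 and NUPR1 had 0 in these transcripts. Genes with and without upstream start codons were both among those called. Any link between this feature and the change in RNA was not tested.

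Upstream of ATF4, the 18 genes of eIF2α kinases, eIF2 and its exchange factor eIF2B had a median log2 fold change of −0.31. Of these, 1 was called lower (5.56%, against 9.64% of all tested genes) and 0 higher (against 11.8%). By the adjusted p-value alone 10 of the 18 were lower and 3 higher, where 28.4% of all tested genes were lower and 29.5% higher. Of the 4 kinase genes, 0 were lower by that rule, and 4 genes are too few to set against these shares. EIF2AK3, which encodes PERK, the kinase of the endoplasmic reticulum, rose by 0.35 on the log2 scale (SE 0.0909, edgeR adjusted p = 0.0105) without reaching the fold threshold. EIF2AK1 (HRI), EIF2AK2 (PKR) and EIF2AK4 (GCN2) had log2 fold changes of 0.15, −0.07 and 0.08 and did not pass the test (adjusted p from edgeR of 0.0657, 0.373 and 0.263). EIF2S1, which encodes eIF2α, fell by 0.65 on the log2 scale (adjusted p = 0.00186 in edgeR). The called gene was EIF2B3, a subunit of eIF2B, with a log2 fold change of −1.19 (SE 0.13, edgeR adjusted p = 0.000114). PPP1R15B, the constitutive counterpart of PPP1R15A, rose by 0.40 (SE 0.0528, edgeR adjusted p = 0.000302), so that the paired phosphatase subunits moved in opposite directions. Its normalized counts were 3852, 3723 and 3843 in siControl and 5001, 5143 and 4962 in siPVT1.

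Among 14 bZIP factors that can pair with ATF4, ATF3 or CHOP, 2 were called lower (14.3%, against 9.64% of all tested genes) and 1 higher (7.14%, against 11.8%), with a median of −0.04. FOSB and FOS, partners of JUN and immediate early genes, were lower with log2 fold changes of −4.58 (SE 0.0863) and −2.15 (SE 0.108). CEBPD rose from 184.7, 188.9 and 198.6 normalized counts in siControl to 569.1, 617.3 and 741.4 in siPVT1, a log2 fold change of 1.75 (SE 0.116, edgeR adjusted p = 9.38e-06). CEBPG, an ATF4 target and dimer partner, fell by 0.73 on the log2 scale (SE 0.0957, edgeR adjusted p = 0.000302). Within the C/EBP family the measured changes thus had both signs.

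Classical targets of ATF4 supply the cell with amino acids. Of 24 listed enzymes and transporters 23 were tested, with a median log2 fold change of −0.50. Of the 23, 9 were called lower (39.1%, against 9.64% of all tested genes), 0 higher (against 11.8%) and 14 not called. By the adjusted p-value alone 18 were lower, 2 higher and 3 did not pass, where 28.4% of all tested genes were lower and 29.5% higher. The lowest were SLC6A9, a glycine transporter with a log2 fold change of −5.50 (SE 0.170), and SLC7A11, the cystine transporter with −3.29 (SE 0.128). ASNS, asparagine synthetase, had 4291, 4135 and 4382 normalized counts in siControl and 1379, 1285 and 793.0 in siPVT1. Its log2 fold change was −1.89 (SE 0.181, edgeR adjusted p = 5.57e-05), with siPVT1 replicate 3 the lowest, as for CHAC1 and DDIT3. SLC7A3 was at 0 counts in all 6 libraries. The cytosolic tRNA synthetases, which ATF4 also induces, had the same median of −0.50 with smaller single changes. Of these 20 genes, 17 were lower and 3 higher by the adjusted p-value alone, against 28.4% and 29.5% of all tested genes. Past both thresholds 1 was called lower (5.0%, against 9.64% of all tested genes) and 0 higher (against 11.8%). The called gene was FARSB (log2 fold change −1.32, standard error 0.170, adjusted p = 0.000277 in edgeR).

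Among other listed targets of ATF4 and CHOP, changes had both signs. Of 17 tested, 5 were called higher (29.4%, against 11.8% of all tested genes) and 1 lower (5.88%, against 9.64%). Their median log2 fold change was −0.14, and by the adjusted p-value alone 6 were higher and 5 lower. By that rule 29.5% of all tested genes were higher and 28.4% lower. VLDLR, a lipoprotein receptor, rose from 845.6, 779.9 and 781.5 normalized counts in siControl to 3810, 3517 and 3019 in siPVT1, a log2 fold change of 2.10 (SE 0.0957, edgeR adjusted p = 1.85e-06). DDIT4, an inhibitor of mTORC1, rose 3.99-fold (edgeR adjusted p = 4.58e-05). Both are also known targets of the hypoxia-inducible factors, as are VEGFA and ERO1A. The 5 genes called higher were these and KLHL24. SQSTM1, the autophagy receptor p62 and a known NRF2 target, was the gene called lower, at −1.39 (SE 0.0753, edgeR adjusted p = 3.74e-06). Any part of the hypoxia-inducible factors or of NRF2 in these changes was not tested. FGF21 had too few counts to be tested.

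The ATF6 and IRE1 arms of the unfolded protein response, which share endoplasmic reticulum stress as a trigger with PERK, had a median log2 fold change of 0.41 over 20 genes. Of these, 3 were called higher and 0 lower, which is 15.0% higher against 11.8% of all tested genes. By the adjusted p-value alone 11 were higher and 1 lower, where 29.5% of all tested genes were higher and 28.4% lower. With scaling by the total count 1 was called higher and 1 lower, and the median stayed positive at 0.26. PDIA4, a protein disulfide isomerase, rose by 1.36 (SE 0.0654, edgeR adjusted p = 2.17e-06) and EDEM1, which directs misfolded glycoproteins to degradation, by 1.14 (SE 0.0562, edgeR adjusted p = 2.49e-06). HSPA5, the chaperone BiP, had a log2 fold change of 0.16 and did not pass the test (SE 0.103, edgeR adjusted p = 0.213). XBP1, the factor spliced by IRE1, was the gene that fell, by 0.91 on the log2 scale (SE 0.102, edgeR adjusted p = 0.000129), and gene counts do not tell its spliced from its unspliced form. The difference between these genes and the 10 stress response genes was not tested as such.

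**Figure D4:**
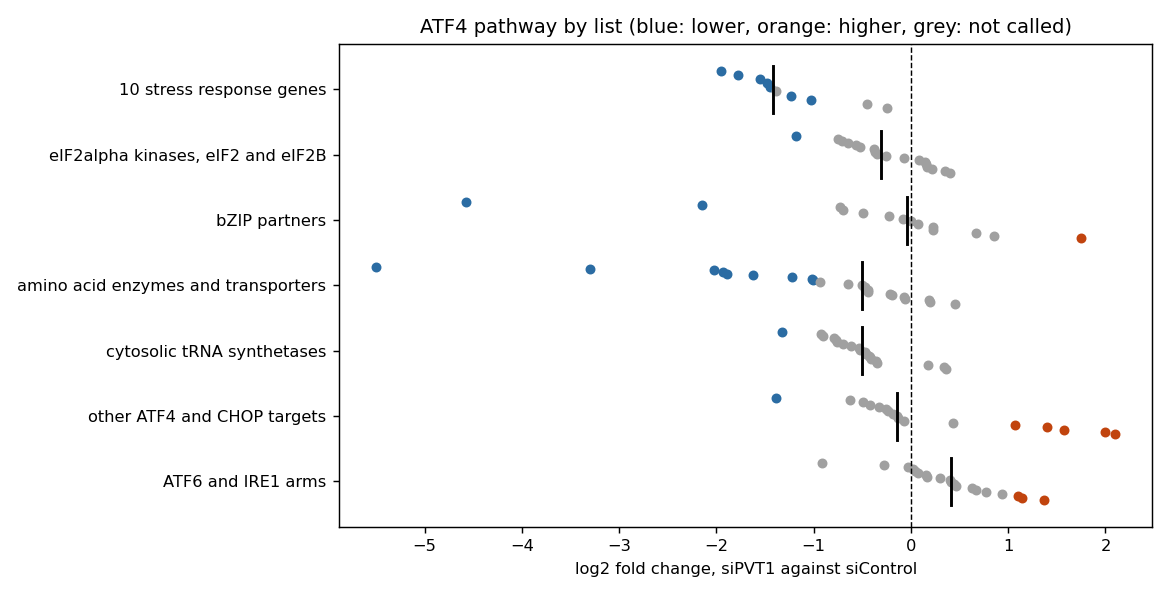
Log2 fold change of siPVT1 against siControl (x axis) for each tested gene (point, blue if called lower, orange if called higher, grey if not called) of the 10 stress response genes and 6 lists of the pathway, with the median of each list as a black bar and the median of all 19008 tested genes as a dashed line. The 10 genes all lie left of 0 with a median of −1.42, and the genes of the ATF6 and IRE1 arms have a median of 0.41.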

How the data were processed

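The authors used STAR to place 75-bp single-end reads on GENCODE transcripts (GRCh38.p13) and Salmon to quantify them. They deposited one table of unnormalized estimated counts, whole numbers, with a row for each gene symbol. The submitters' processing notes name STAR 2.7.3a and Salmon 0.14.1. All 6 columns were matched to samples by their labels. TMM normalization and the quasi-likelihood test of edgeR 4.0.16 (R 4.3.3) were run on these counts with the siRNA as the only term, for genes that reached 5 normalized counts in 3 or more libraries. Normalized counts are counts divided by the TMM-scaled library size times its mean over libraries, and the SE of a log2 fold change is its size over the square root of F. The test was checked on simulated data. Permutation tests were exact and two-sided (scipy 1.17.1). Coordinates, lengths and 5′ leaders are from GENCODE v44 on GRCh38. DESeq2 1.42.0, other scalings and filters, the replicate block and leaving out each library were the alternatives.

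The 10 genes and the lists were chosen with earlier results of these data known. Named from each list were up to 2 called genes of largest change in each direction and genes named for their roles. MARS1, VEGFA, ERO1A, KLHL24, SLC7A3, FGF21, the markers and the other promoters were named after their values were seen.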

Additional observations from a re-analysis of the deposited data

How the results depend on the processing

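Of 516 values recomputed under an alternative, 485 kept their direction and call or stayed within the limit set for a count or a median, and 0 reversed. Part of these could not reverse. Counts of genes and the median of all tested genes were judged only by size. Rescaling the libraries cannot change a ratio to ATF4, and the adjusted p-value alone cannot change a fold change. The number of the 10 genes called lower was between 6 and 7 with 1 library left out and 8 by the adjusted p-value alone, and no alternative called one higher. DDIT3 was the gene lost, without siPVT1 replicate 3. NUPR1 was below the filter in 4 fits. Scaling by the total count gave 3 tRNA synthetases called lower and, for the ATF6 and IRE1 arms, 1 lower and 1 higher. With 1 library left out, the tRNA synthetases called lower numbered 1 to 2 and the ATF6 and IRE1 genes called lower 0 to 1; without siPVT1 replicate 3 they were 2 and 1. By the adjusted p-value alone, 5395 genes were lower and 5612 higher, and PVT1 (−0.72) and ATF4 (−0.45) passed. By that rule the lower and higher genes were 10 and 3 for eIF2α kinases, eIF2 and eIF2B, 5 and 4 for bZIP partners, 18 and 2 for amino acid genes, 17 and 3 for tRNA synthetases, 5 and 6 for other targets and 1 and 11 for the ATF6 and IRE1 arms. The replicate numbers did not pair the libraries: deviations of same-numbered libraries correlated at −0.037, 0.029 and 0.0023 over 19008 genes, and 2 of 6 libraries correlated best with their own number in the other group. With the replicate block 3924 genes were called in place of 4081, and the block changed no call among the 10 genes. Depth limits what can be said of NUPR1, SLC7A3 and FGF21.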

Other observations

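The libraries of a group did not rank alike for the 10 genes. In siControl, replicate 2 was the lowest library for 8 of the 10 genes, and for 50.9% of all tested genes. In siPVT1, replicate 3 was the lowest for 7 of the 10 genes, against 39.5% of all tested genes, and it was the highest for ATF4, ATF5 and TRIB3. Replicate 3 thus held the most ATF4 RNA and the least ATF3, DDIT3, CHAC1, SESN2 and PPP1R15A RNA of the siPVT1 libraries. Among genes with a mean of at least 200 normalized counts, the libraries varied by a median of 4.0% of the mean (coefficient of variation) for siControl and 8.40% for siPVT1.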
